A study of Mus musculus with 15 samples.

Results

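The translation initiation and elongation factor genes were taken as every gene whose symbol begins with Eif and a digit from 1 to 6, or with Eef1 or Eef2. This gave 62 genes of the 12798 in the table of expression values, and 62 of 62 passed the filter on low values. The choice used symbols only, not expression. In mouse annotation of build GRCm38, 60 of the 62 are protein coding and 2, Eif4a-ps4 and Eif5al3-ps, are processed pseudogenes.

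Translation begins when eIF2 brings the initiator tRNA to the small ribosomal subunit, on which eIF1, eIF1A, eIF3 and eIF5 also gather. The cap of the mRNA is bound by eIF4F, which joins the cap-binding protein eIF4E, the scaffold eIF4G and the helicase eIF4A. The eIF2 kinases and the eIF4E-binding proteins hold back initiation, eEF1A delivers tRNAs to the elongating ribosome, and eEF2 moves it along the mRNA. In blood progenitors the rate of protein synthesis is known to differ between stages.

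The libraries are bulk RNA-seq of sorted mouse bone marrow progenitors on the C57BL/6 background, and animal age was not among the labels used. ALP_WT (n = 3), the all-lymphoid progenitor, carried Tcf7EGFP/+ and was Lin- Kit+ 2B4+ a4b7-, Flt3high and IL-7Ra+. EILP_WT (n = 3), the early innate lymphoid progenitor, carried Tcf7EGFPnull/+, hence 1 null allele, and EILP_KO (n = 2) carried Tcf7EGFPnull/-. The EILP gate was a4b7+ Tcf7+ Thy1-. It was divided in Tcf7GFP Zbtb16GFP mice into sEILP_WT (n = 2), Zbtb16low Flt3high, and cEILP_WT (n = 3), Zbtb16high Flt3low. ILCP_WT (n = 2), the innate lymphoid cell progenitor, carried Tcf7EGFP/+ and was Thy1+ IL-7Ra+. Between stages, the genotype or reporter strain changes along with the stage in every comparison except ILCP_WT with ALP_WT and cEILP_WT with sEILP_WT, and the 2 cannot be told apart. Labels put 9 libraries in batch 1 and 6 in batch 2, with sEILP_WT in batch 1 only. Whether the replicates came from different animals is not stated there, and a p-value then reflects only how these libraries vary, which may be technical.

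Values are log2 values with library totals near those of CPM or TPM, which were quantile-normalized across libraries. Whether they were scaled per length is not stated in the sources used here. Levels are therefore compared between groups and not between genes. Depth is unknown, because no counts were used. Between 747 and 2575 genes stood at the lowest value of a library, with 2575 in EILP_WT replicate 3 and 2124 and 2224 in the ILCP_WT libraries, against 747 to 1910 in the others. In ILCP_WT the sort and stage markers Thy1, Il7r, Gata3, Id2, Zbtb16 and Icos were all above the lowest value in both libraries. Neutrophil markers summed to 0.213 to 3.91 on the linear scale in ILCP_WT, against 722 in cEILP_WT replicate 3, 200 and 149 in ALP_WT replicates 1 and 2, and 0.179 to 16 in the other 10 libraries. In ILCP_WT, B lineage markers summed to 79.5 to 84.4, T cell markers to 238 to 425 and erythroid markers to 13.6 to 194. The other groups gave 34.4 to 124, 153 to 452 and 5.94 to 460, so ILCP_WT lay within their range. Only 3 of the 7 listed B lineage genes were measured. Mast cell and basophil markers summed to 749 in ILCP_WT replicate 1 and 90.0 in replicate 2, against 576 to 963 in EILP_WT, 1097 to 1976 in cEILP_WT and 12 to 51.7 in ALP_WT. Myeloid markers summed to 155 to 811 in ILCP_WT and 500 to 4909 in the other groups. The part of these other cell types in the results below was not tested. In bulk samples, fewer cells of a type and less RNA per cell cannot be told apart.

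The translation factor genes were steady from library to library. The residual standard deviation here is the spread left after group means are removed, and it still holds batch differences. Its median was 0.266 on the log2 scale for the 62 genes and 0.721 for the 12572 genes tested. The residual spread was under 0.3 for 37 of the 62, and 58 were at or above 0 in every library. The 62 were not matched for expression level with all genes tested, so the part of level in their smaller spread was not tested. Eif4a-ps4 (0.102), the start-site selector Eif1 (0.103), the eIF3 subunit Eif3l (0.105) and the helicase Eif4a1 (0.110) had the smallest spread. Spread was over 1 for 5 genes: the eIF2 kinases Eif2ak3 (1.04) and Eif2ak4 (1.49), Eif3j2 (1.42), the Y-linked Eif2s3y (4.80) and Eif5a2 (4.86). In a limma F test over the 6 groups 5 genes had an adjusted p under 0.05, or 8.06%, against 8.36% of all genes tested, which is about the same share. They were Eif4a1 (adjusted p = 0.0021), Eif4e3, Eif3l (0.0274), Eif5a (0.0304) and Eif4e2. The F count was 2 without ALP_WT replicate 2, sEILP_WT replicate 2 or cEILP_WT replicate 2. It was 1, with Eif4a1 alone called, without ALP_WT replicate 3, sEILP_WT replicate 1, cEILP_WT replicate 1 or ILCP_WT replicate 2.

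**Figure D1:**
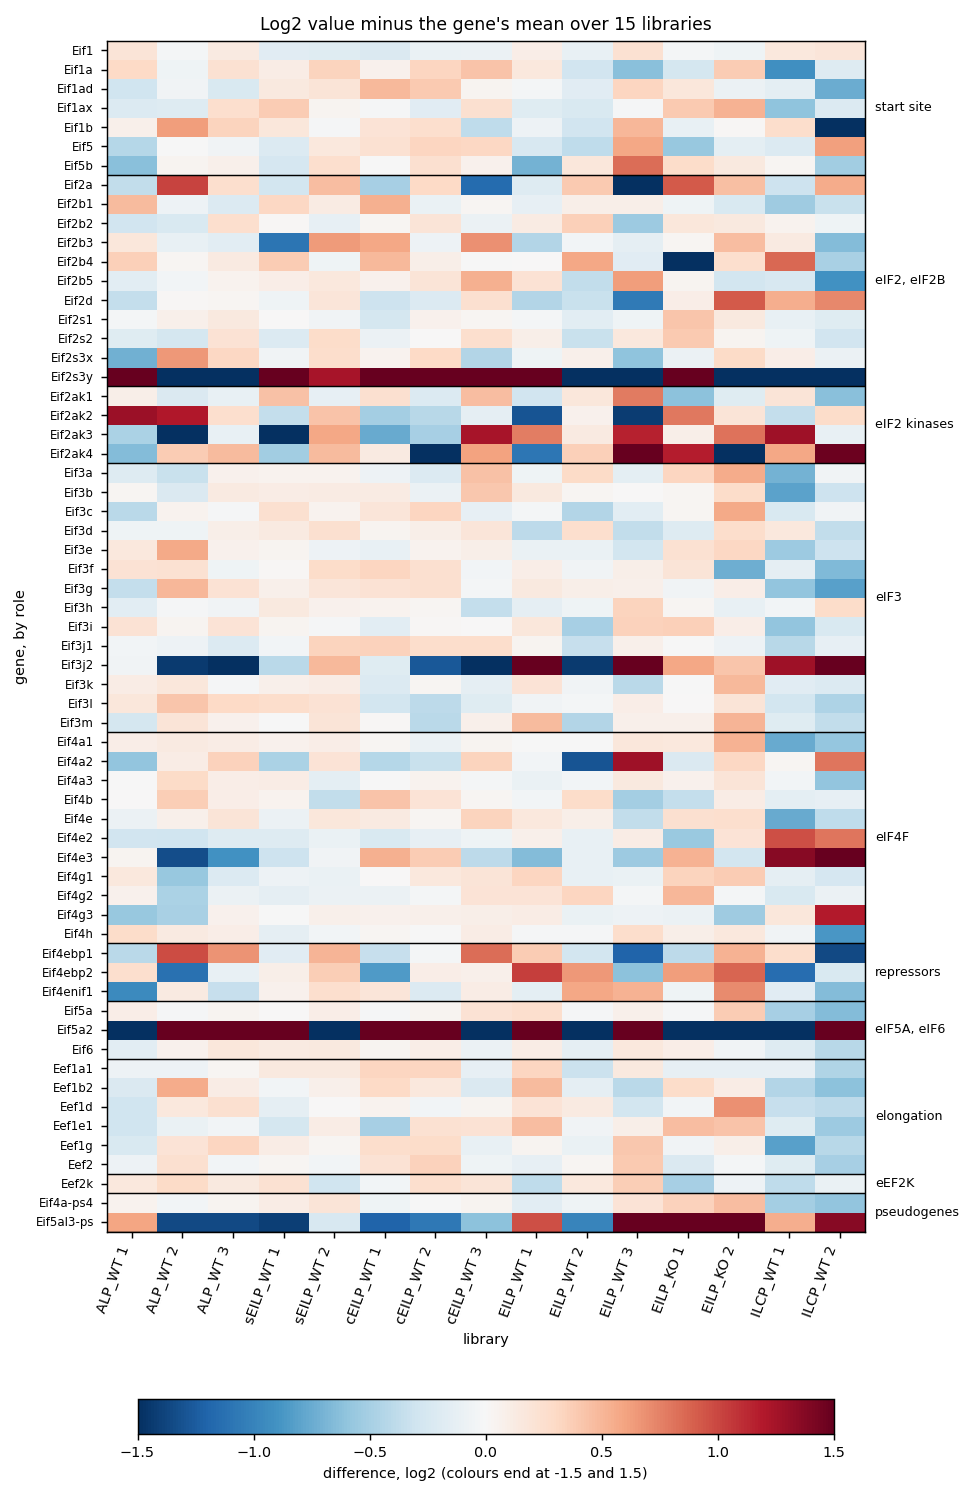
Log2 value of each of the 62 genes (vertical axis, ordered by role) in each of the 15 libraries (horizontal axis) minus that gene's mean over all libraries. Most cells are pale, the columns of ILCP_WT are blue for many genes, and Eif2s3y and Eif5a2 switch between the ends of the colour scale.

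All calls lay between ILCP_WT and the earlier stages, where 13 of the 62 genes changed in at least 1 comparison by limma, beside 17.5% of all genes tested. Of these, 9 were lower in ILCP_WT: the helicase Eif4a1, the cap-binding protein Eif4e, the helicase cofactor Eif4h, the eIF3 subunits Eif3b, Eif3e, Eif3g and Eif3l, the elongation and termination factor Eif5a, and the eEF1 subunit Eef1g. The other 4 were higher: the eIF4E homologs Eif4e2 and Eif4e3, the scaffold Eif4g3, and Eif2d, a factor of noncanonical initiation and recycling. In ILCP_WT against EILP_WT 3 genes rose and 5 fell, or 12.9% of the 62, against 6.95% of all genes tested. Against cEILP_WT 2 rose and 6 fell, again 12.9%, with a background of 7.41%. Against ALP_WT 3 rose and 7 fell, or 16.1%, near the background of 13.4%. The lower calls alone have a background of 4.34%, 4.72% and 7.86% in the same order, and the higher calls 2.61%, 2.69% and 5.56%. At an unadjusted p under 0.05 there were 15, 20 and 20 of the 62, where 22.3%, 22.2% and 26.6% of all genes passed.

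Over all 62 genes, the called ones included, most differences were negative. The count was 44 of 62 against EILP_WT, 48 against cEILP_WT and 46 against ALP_WT, where 52.4%, 52.8% and 53.2% of all genes tested were negative. The members had medians of -0.32, -0.38 and -0.27 on the log2 scale beside -0.06, -0.07 and -0.09 for all genes tested. The 3 comparisons share the ILCP_WT libraries, so these are not separate pieces of evidence. Both ILCP_WT libraries lay below the other 13 for 12 of the 62 genes, beside 6.81% of all genes tested. These were Eif4a1, Eif4a-ps4, Eif4e, Eif2b1, Eif3b, Eif3e, Eif3g, Eif5a, Eif6, Eef1b2, Eef1d and Eef1g. Both lay above the other 13 for 3 genes, Eif4e2, Eif4e3 and Eif4g3, beside 7.57% of all genes. The linear values of the 62 genes summed to 1.68% and 1.67% of each ILCP_WT library's total, against 1.95% to 2.19% in the other 13. Without the 3 largest contributors, Eef1a1, Eif4g2 and Eif5a, the sums were 1.04% and 1.08% against 1.2% to 1.42%.

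The size of this lean depended on the scaling. Under cyclic loess normalization of the same values, the medians of the 62 genes were -0.15, -0.23 and -0.15 against EILP_WT, cEILP_WT and ALP_WT. The calls then became 3 higher and 1 lower, 3 higher and 1 lower, and 3 higher and 2 lower, where the deposited scaling gave 3 and 5, 2 and 6, and 3 and 7. In all genes, loess gave 391 higher and 447 lower against EILP_WT, 386 and 460 against cEILP_WT, and 789 and 845 against ALP_WT. The deposited scaling gave 328 and 546, 338 and 594, and 699 and 988.

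**Figure D2:**
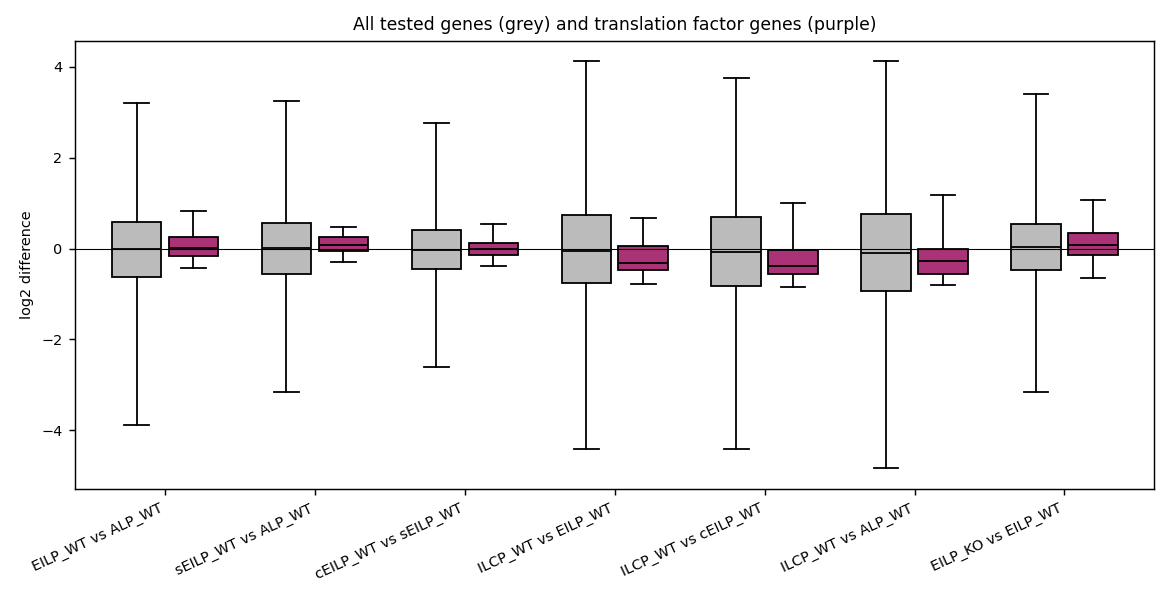
Fitted log2 differences (vertical axis) in each of the 7 comparisons (horizontal axis) for all 12572 genes tested (grey) and the 62 translation factor genes (purple). Boxes span the quartiles with the median as a line. The purple boxes are narrower throughout, and their medians lie below 0 in the 3 ILCP_WT comparisons, at -0.32, -0.38 and -0.27.

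The counts also rested on few libraries. Without ILCP_WT replicate 2 they were 3 against EILP_WT, 3 against cEILP_WT and 2 against ALP_WT. Against EILP_WT the count was 3 without EILP_WT replicate 1 and 5 without EILP_WT replicate 3. Against cEILP_WT it was 3 without cEILP_WT replicate 1 or 3, and 4 without replicate 2. Against ALP_WT it was 6 without ALP_WT replicate 2. In batch 1 alone, with a single ILCP_WT library whose spread is assumed to be that of the other groups, 3, 4 and 2 genes changed. Both ILCP_WT libraries stood at the lowest value for the Y-linked genes, which separates them from all cEILP_WT libraries. With a Y-linked term in the model the count against cEILP_WT was 1, Eif4a1.

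**Figure D3:**
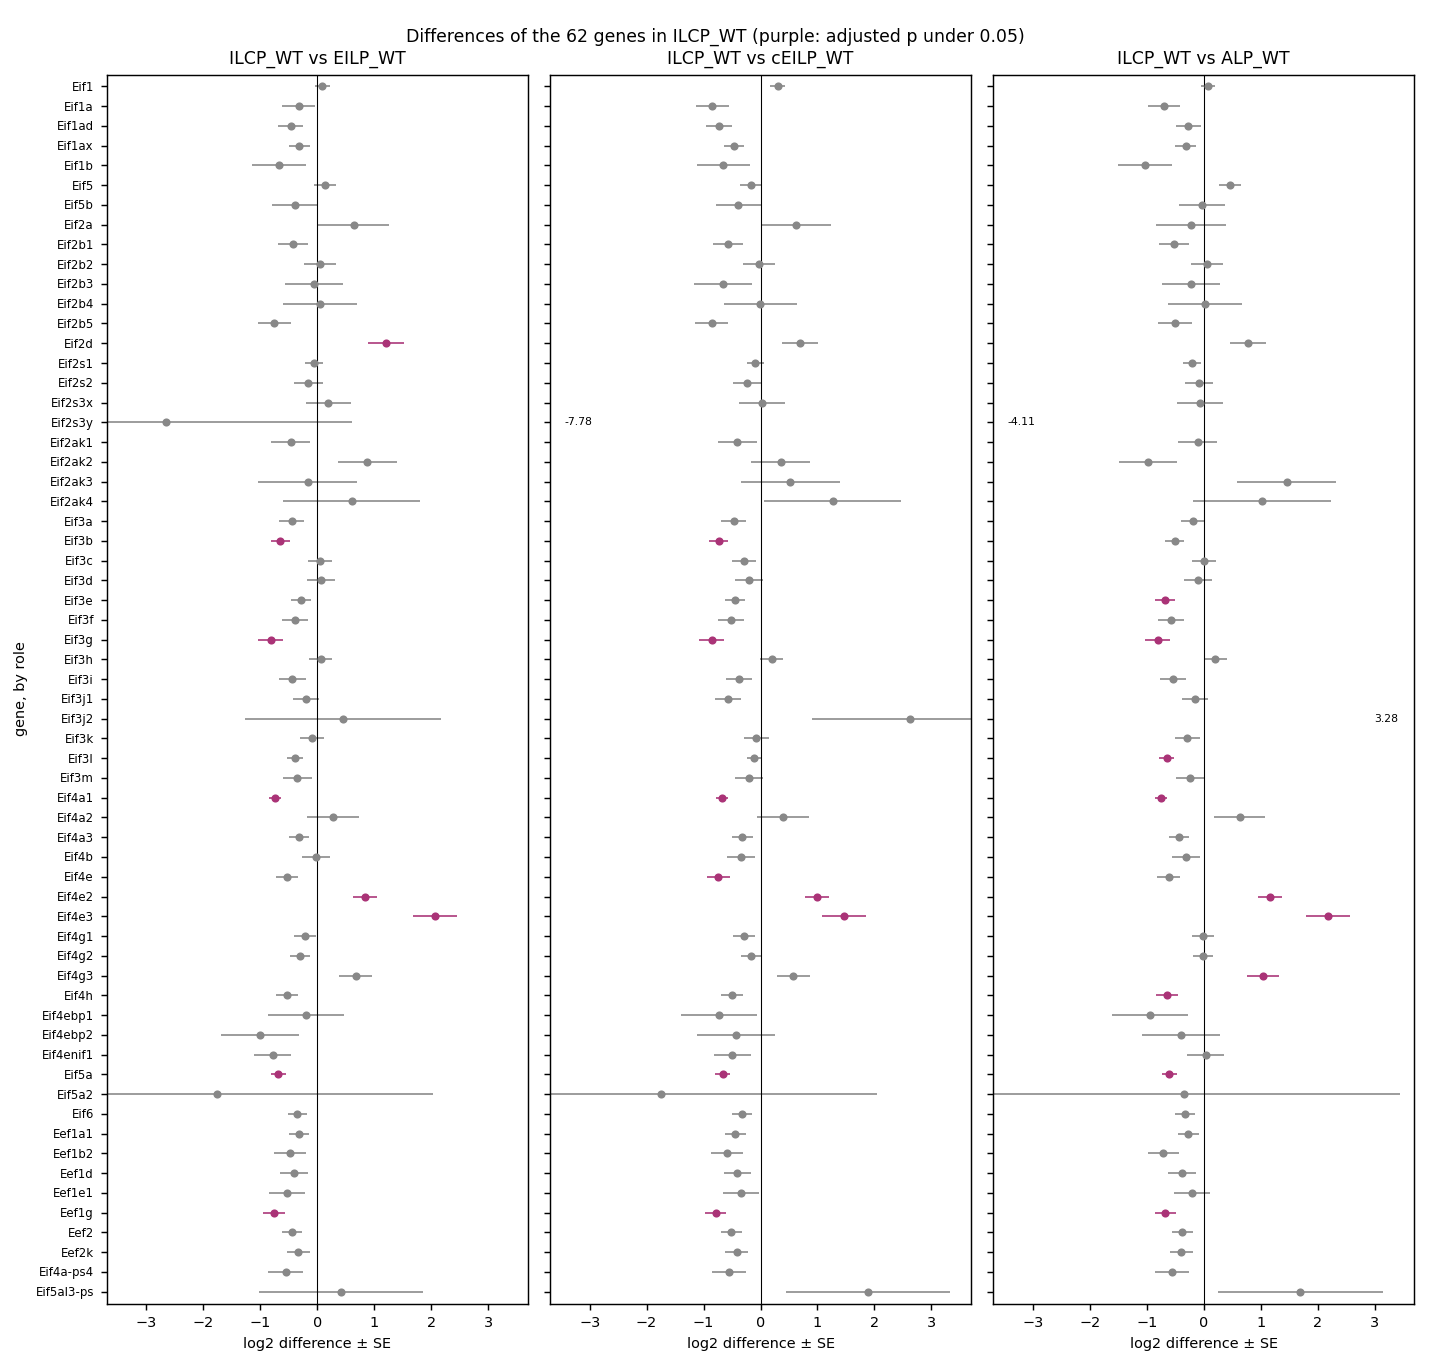
Fitted log2 difference with its standard error (horizontal axis) for each of the 62 genes (vertical axis, ordered by role) in ILCP_WT against EILP_WT, cEILP_WT and ALP_WT. Purple marks an adjusted p under 0.05, which holds for 8, 8 and 10 genes, and printed numbers replace points outside the axis. Most points lie left of 0, and Eif4e2, Eif4e3 and Eif4g3 lie to the right.

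Among the eIF4F genes and their partners, both directions occurred. Eif4a1, the helicase subunit that unwinds mRNA leaders, was 10.06, 10.09 and 10.06 in ALP_WT, 10.02 and 10.06 in sEILP_WT, 9.98, 9.87 and 10.00 in cEILP_WT, 9.95, 9.95 and 10.12 in EILP_WT, 10.11 and 10.47 in EILP_KO, and 9.21 and 9.38 in ILCP_WT. The 13 libraries outside ILCP_WT lay between 9.87 and 10.47, and both ILCP_WT libraries were lower than all of them. Eif4a1 fell by 0.74 ± 0.10 (SE) against EILP_WT, a 1.67-fold difference (limma, adjusted p = 0.00125). It fell by 0.68 against cEILP_WT (adjusted p = 0.00221) and by 0.76 against ALP_WT (adjusted p = 0.000717). The Eif4a1 calls held when any single library was left out and in batch 1 alone. They were lost in fits of the groups compared alone, and without the variance trend in the first 2 of these comparisons, with adjusted p of 0.000725 to 0.168 over all alternatives. The pseudogene Eif4a-ps4, which may share reads with Eif4a1, was 4.72 and 4.65 in ILCP_WT and 5.07 to 5.69 in the other 13 libraries. How the counting split reads between the pair is unknown, so both values are uncertain.

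Eif4e and Eif4h, 2 more eIF4F genes or partners, also fell. Eif4e, the canonical cap-binding protein, was 8.07, 8.24 and 8.35 in ALP_WT, 8.07 and 8.33 in sEILP_WT, 8.30, 8.18 and 8.50 in cEILP_WT, 8.32, 8.25 and 7.79 in EILP_WT, 8.41 and 8.41 in EILP_KO, and 7.41 and 7.78 in ILCP_WT. ILCP_WT did not overlap the rest, although EILP_WT replicate 3 came close to the higher ILCP_WT library. Eif4e fell by 0.74 ± 0.20 against cEILP_WT (limma, adjusted p = 0.0421), and this call was lost when any of the 5 libraries compared was left out, with differences of -0.54 to -0.92. Eif4h, which stimulates the helicase, was 9.33, 9.19 and 9.15 in ALP_WT and 9.0 and 8.19 in ILCP_WT. Its call against ALP_WT, -0.64 ± 0.20 (limma, adjusted p = 0.0489), rested on ILCP_WT replicate 2, without which the difference was -0.18, and was lost without any single ALP_WT library too (-0.60 to -0.67).

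The cap-binding homologs moved the opposite way to Eif4e. Eif4e2 encodes 4EHP, a cap-binding protein known as a repressor because it does not recruit eIF4G. It was 6.83, 6.81 and 6.92 in ALP_WT, 6.92 and 7.02 in sEILP_WT, 6.88, 7.0 and 7.05 in cEILP_WT, 7.19, 7.0 and 7.22 in EILP_WT, 6.55 and 7.32 in EILP_KO, and 8.07 and 7.92 in ILCP_WT. Both ILCP_WT libraries exceeded all others. Eif4e2 rose by 0.83 ± 0.21 against EILP_WT, by 1.00 ± 0.21 against cEILP_WT and by 1.17 ± 0.21 against ALP_WT (limma, adjusted p = 0.0334, 0.014 and 0.00362). The call against ALP_WT held without any single library and in batch 1 alone. Without ILCP_WT replicate 1 the other calls were lost (differences of 0.63 and 0.79). They were lost too without any single EILP_WT library in the first (0.79 to 0.89) and without cEILP_WT replicate 3 in the second (0.97).

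Eif4e3, a cap-binding protein with a divergent pocket, was 5.57, 4.20 and 4.61 in ALP_WT, 5.22 and 5.47 in sEILP_WT, 6.07, 5.91 and 5.13 in cEILP_WT, 4.88, 5.42 and 4.99 in EILP_WT, 6.04 and 5.26 in EILP_KO, and 6.90 and 7.25 in ILCP_WT. The ILCP_WT libraries were the 2 highest of the 15. Eif4e3 rose by 2.07 ± 0.39 against EILP_WT, a 4.21-fold difference, by 1.47 ± 0.39 against cEILP_WT and by 2.19 ± 0.39 against ALP_WT (limma, adjusted p = 0.00721, 0.0404 and 0.0034). Without ILCP_WT replicate 2 the differences were 1.56, 0.95 and 1.61 and none passed the threshold by limma. The call against cEILP_WT was also lost without any single cEILP_WT library (1.33 to 1.56). In batch 1 alone the differences were 1.75, 0.91 and 1.33, again without a call.

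Eif4g3, a paralog of the scaffold Eif4g1, was 6.37, 6.46 and 7.01 in ALP_WT, 7.12 in ILCP_WT replicate 1 and 8.14 in replicate 2. It rose by 1.04 ± 0.29 against ALP_WT (limma, adjusted p = 0.0329), and by 0.50 without ILCP_WT replicate 2, without a call. The call was lost as well without ALP_WT replicate 1 (0.95) or 2 (0.93). Eif4g1 itself ranged from 7.81 to 8.77 over the 15 libraries, with ILCP_WT at 8.24 and 8.12 (F test adjusted p = 0.317). Eif4a2, the other eIF4A helicase, ranged from 4.18 to 6.75. Eif4a3, the helicase of the exon junction complex, was 8.42 and 7.87 in ILCP_WT and 8.32 to 8.75 elsewhere. The helicase cofactor Eif4b was 7.97 and 8.0 in ILCP_WT within a range of 7.60 to 8.54, so these 4 genes overlapped between groups. Eif4g2, a scaffold that lacks the eIF4E-binding site, ranged from 10.89 to 11.87.

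**Figure D4:**
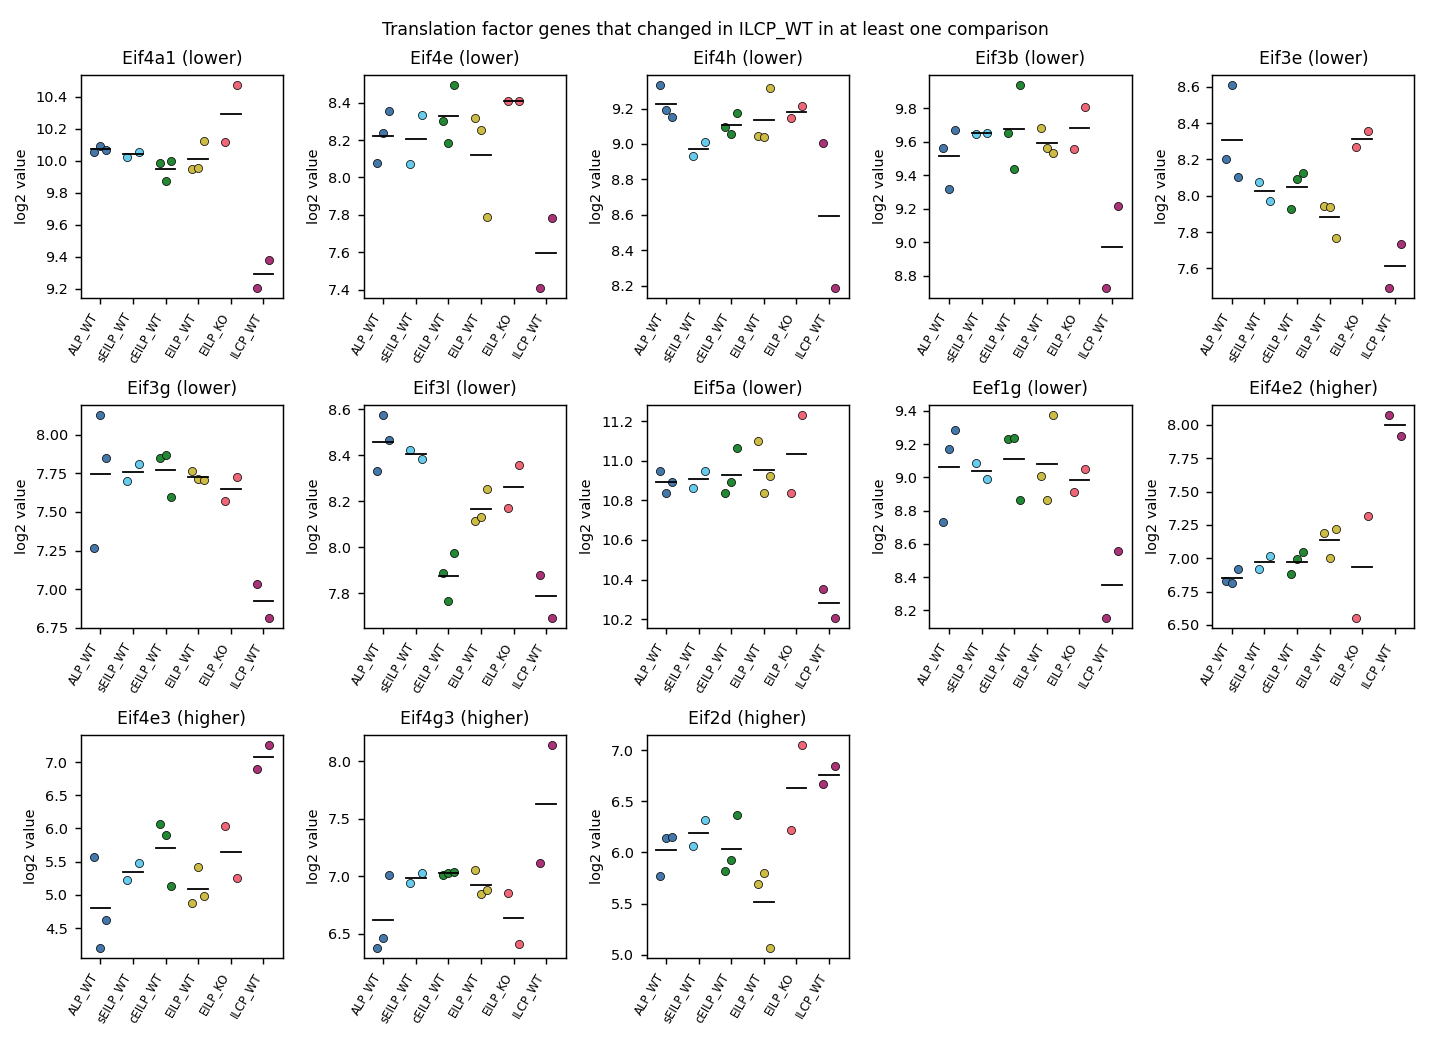
Log2 values (vertical axes, each with its own scale) of the 13 genes that changed in ILCP_WT, by group (horizontal axes). Points are libraries and lines are group means. Eif4a1 and Eif5a stand tightly near 10 and 11 outside ILCP_WT and fall in both ILCP_WT libraries, and Eif4g3 and Eif4h rest largely on 1 ILCP_WT library.

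Promoter sequence was read for the 62 genes to describe the called ones beside the rest. RefSeq windows of build GRCm38.p6 were searched on both strands over the 250 bases before each annotated start, and 48 of the 62 genes had at least 1 window. The palindrome CACGTG, the E-box that Myc with Max and other bHLH factors are known to bind, occurred for 11 of the 48 (22.9%) and for 909 of 9140 tested genes (9.95%). By window, 13 of 63 (20.6%) held it, against 966 of 11655 (8.29%). It occurred for 4 of the 7 called-lower genes with a window (Eif4a1, Eif4e, Eif4h and Eif5a) and for 0 of the 3 called-higher genes with one (Eif4e2, Eif4g3 and Eif2d). The called-lower Eif3b, Eif3g and Eif3l had a window without it. Genes that were not called held it too: Eif5a2, Eif3k, Eif3f, Eef2k, Eif1b, Eef2 and Eif4g1. Eef1g, Eif3e and Eif4e3 had no window. The motif TGATGNAA, bound by ATF4 and C/EBP dimers, occurred for 2 of 48 genes (4.17%, against 2.4%), and the ETS motif CCGGAAGT for 5 (10.4%, against 6.97%). A match describes the letters of the window and is neither a binding site nor a cause.

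The windows below show the E-box in capitals for the 4 called-lower genes that hold it and, for contrast, Eif4e2, which rose and holds none. Called-lower genes without the E-box, and uncalled genes with it, are not shown. Each ends at the base before the RefSeq start, except for Eif4e and Eif4h. Their windows overlap an annotated exon, so only 30 bases around the match are given. The Eif5a and Eif4e stretches lie inside the annotated span of the gene, so their starts are alternative ones. The match in Eif4a1 begins 189 bases before the start (chr11:69672424-69672623, minus strand), in Eif5a 74 (chr11:69921387-69921586, minus strand, 1 of 6 overlapping or alternative windows), in Eif4e 64 (the nearer of 2 matches, the other 228 bases before the start, chr3:138527192-138527221, plus strand) and in Eif4h 96 (chr5:134639488-134639517, minus strand). The Eif4e2 window is chr1:87213711-87213910, plus strand. All are written 5′ to 3′ on the strand of the gene.
Eif4a1: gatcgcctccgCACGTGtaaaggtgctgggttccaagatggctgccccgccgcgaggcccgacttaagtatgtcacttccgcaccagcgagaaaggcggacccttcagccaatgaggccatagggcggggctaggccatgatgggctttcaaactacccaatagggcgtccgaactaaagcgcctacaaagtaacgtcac
Eif5a: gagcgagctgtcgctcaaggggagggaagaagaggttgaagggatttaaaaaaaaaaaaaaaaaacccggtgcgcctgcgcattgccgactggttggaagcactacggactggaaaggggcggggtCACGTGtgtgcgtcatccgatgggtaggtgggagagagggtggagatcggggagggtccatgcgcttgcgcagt
Eif4e: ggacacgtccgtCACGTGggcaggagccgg
Eif4h: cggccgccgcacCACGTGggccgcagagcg
Eif4e2: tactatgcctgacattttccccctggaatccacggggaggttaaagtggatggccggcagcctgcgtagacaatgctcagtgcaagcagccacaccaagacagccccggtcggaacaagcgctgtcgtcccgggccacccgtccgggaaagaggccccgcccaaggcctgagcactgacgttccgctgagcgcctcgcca

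Eif5a, the hypusine-modified factor that relieves stalled ribosomes, was 10.95, 10.84 and 10.89 in ALP_WT, 10.86 and 10.95 in sEILP_WT, 10.84, 10.89 and 11.06 in cEILP_WT, 11.10, 10.84 and 10.92 in EILP_WT, 10.84 and 11.23 in EILP_KO, and 10.35 and 10.21 in ILCP_WT. The 13 other libraries lay between 10.84 and 11.23 and both ILCP_WT libraries below them. Quantile normalization gave several of them the same exact value, such as 10.84 in ALP_WT replicate 2, cEILP_WT replicate 1, EILP_WT replicate 2 and EILP_KO replicate 1. Their closeness is therefore coarse. Eif5a fell by 0.68 ± 0.13 against EILP_WT, by 0.66 against cEILP_WT and by 0.60 against ALP_WT (limma, adjusted p = 0.0083, 0.0105 and 0.0103). Without ILCP_WT replicate 2 the differences were -0.57, -0.54 and -0.47 and all 3 calls were lost, and without cEILP_WT replicate 3 the second was (-0.59). Under cyclic loess the differences were -0.42, -0.41 and -0.40, with no call. Eif5al3-ps, a pseudogene resembling Eif5a, ranged from -1.06 to 2.07, and how reads were divided between them is unknown. The paralog Eif5a2 stood at the lowest value in 6 of the 15 libraries and reached 5.12 in ILCP_WT replicate 2. Eif6, which keeps the large ribosomal subunit from joining too early, was 7.47 and 7.25 in ILCP_WT and 7.51 to 7.83 in the others. None of the comparisons called Eif6 (F test adjusted p = 0.534).

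Of the 14 eIF3 genes, 2 fell in ILCP_WT against EILP_WT, 2 against cEILP_WT and 3 against ALP_WT, and 0 rose. The eIF3 complex bridges the small ribosomal subunit and eIF4F. The differences were negative for 10, 12 and 11 of the 14, with medians of -0.32, -0.34 and -0.26. Eif3g was 7.27, 8.13 and 7.85 in ALP_WT, 7.70 and 7.81 in sEILP_WT, 7.85, 7.87 and 7.60 in cEILP_WT, 7.77, 7.71 and 7.71 in EILP_WT, 7.57 and 7.72 in EILP_KO, and 7.04 and 6.82 in ILCP_WT. It fell by 0.82, 0.86 and 0.81 against EILP_WT, cEILP_WT and ALP_WT (SE 0.22, limma, adjusted p = 0.0484, 0.039 and 0.0323). Each of these calls was lost without ILCP_WT replicate 2 (-0.65, -0.69 and -0.62). They were lost without ILCP_WT replicate 1 in the first 2 (-1.01 and -1.05), without any EILP_WT library in the first (-0.78 to -0.87), without cEILP_WT replicate 1 (-0.81) or 2 (-0.80) in the second, and without ALP_WT replicate 2 (-0.63) or 3 (-0.77) in the third. In batch 1 alone the difference from ALP_WT was -0.23.

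Eif3b, the scaffold subunit that binds eIF3g and eIF3i, was 8.73 and 9.22 in ILCP_WT and 9.32 to 9.94 in the other 13. It fell by 0.65 ± 0.16 against EILP_WT and by 0.73 ± 0.16 against cEILP_WT (limma, adjusted p = 0.0363 and 0.0207). Without ILCP_WT replicate 1 the differences were -0.45 and -0.53 without a call. The calls were lost too without EILP_WT replicate 1 (-0.57) or 2 (-0.63), and without cEILP_WT replicate 1 (-0.71) or 3 (-0.63). Eif3e was 8.20, 8.61 and 8.11 in ALP_WT and 7.49 and 7.73 in ILCP_WT, and fell by 0.68 ± 0.17 (limma, adjusted p = 0.0221). That call was lost without ALP_WT replicate 2 (-0.54), ILCP_WT replicate 1 (-0.59) or ILCP_WT replicate 2 (-0.78). The core subunit Eif3a was 7.77 and 8.42 in ILCP_WT and 8.14 to 9.03 elsewhere, with overlap.

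Eif3l, another eIF3 subunit, was low in cEILP_WT as well as in ILCP_WT. It was 8.33, 8.57 and 8.46 in ALP_WT, 8.42 and 8.38 in sEILP_WT, 7.89, 7.77 and 7.98 in cEILP_WT, 8.11, 8.13 and 8.25 in EILP_WT, 8.17 and 8.36 in EILP_KO, and 7.88 and 7.69 in ILCP_WT. The cEILP_WT and ILCP_WT libraries overlapped and lay below all the others. Eif3l fell by 0.65 ± 0.14 in ILCP_WT against ALP_WT (limma, adjusted p = 0.00937), and by 0.47 without ILCP_WT replicate 2, without a call. In batch 1 alone the difference was -0.45. Between cEILP_WT and sEILP_WT the fitted difference was -0.56 ± 0.14, which limma did not call (adjusted p = 0.625).

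The 6 genes listed under elongation were Eef1a1, Eef1b2, Eef1d, Eef1e1, Eef1g and Eef2. Whether Eef1e1 acts in elongation itself was not examined. All 6 had negative differences in each of the 3 ILCP_WT comparisons, with medians of -0.46, -0.48 and -0.38, and 1 of the 6, Eef1g, changed. Under cyclic loess the 6 were still negative, with medians of -0.31, -0.27 and -0.22 and 0 calls by limma. Of all genes tested, 52.4% to 53.2% were negative in the deposited scaling and 50.9% to 51.3% under loess. Eef1g, the gamma subunit of the exchange complex that recharges eEF1A, was 8.73, 9.17 and 9.28 in ALP_WT, 9.08 and 8.99 in sEILP_WT, 9.23, 9.24 and 8.86 in cEILP_WT, 9.01, 8.86 and 9.38 in EILP_WT, 8.91 and 9.05 in EILP_KO, and 8.15 and 8.55 in ILCP_WT. Both ILCP_WT libraries were below the rest. It fell by 0.76, 0.79 and 0.67 against EILP_WT, cEILP_WT and ALP_WT (SE 0.19, limma, adjusted p = 0.0316, 0.0278 and 0.0346). All 3 calls were lost without ILCP_WT replicate 1 (-0.65, -0.67 and -0.57) and without ILCP_WT replicate 2 (-0.87, -0.90 and -0.79). They were lost too without EILP_WT replicate 1 (-0.77) or 3 (-0.66), cEILP_WT replicate 1 (-0.70) or 2 (-0.69), and ALP_WT replicate 2 (-0.65) or 3 (-0.60).

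The other exchange subunits showed the same position of ILCP_WT without a call. Eef1b2 was 7.13 and 6.95 in ILCP_WT and 7.16 to 8.12 elsewhere, and Eef1d 6.94 and 6.88 against 6.98 to 7.97. The translocase Eef2 was 9.77 and 9.47 in ILCP_WT and 9.74 to 10.35 elsewhere, overlapping through EILP_KO replicate 1. Eef1a1 ranged from 11.10 to 11.87 and held rank 1 to 11 of its library. At the top of the list quantile normalization assigns shared steps, so Eef1a1 has few distinct values and its differences are coarse. Eif5a and Eif4g2 also share exact values between libraries. Eef2k, the kinase that inhibits eEF2, was 8.13 and 8.41 in ILCP_WT and 8.01 to 8.87 elsewhere.

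The eIF2 genes changed little. The alpha subunit Eif2s1, the target of the kinases, was 8.13 and 8.05 in ILCP_WT and 7.97 to 8.66 elsewhere. The 11 genes listed with eIF2 and its exchange factor eIF2B include Eif2d, the factor of noncanonical initiation and recycling. Of the 11, only Eif2d rose against EILP_WT, so no eIF2 or eIF2B subunit gene was called there. Against cEILP_WT and ALP_WT 0 changed by limma (2 and 1 at an unadjusted p under 0.05). Eif2d was 5.77, 6.14 and 6.15 in ALP_WT, 6.06 and 6.31 in sEILP_WT, 5.82, 5.93 and 6.36 in cEILP_WT, 5.69, 5.80 and 5.07 in EILP_WT, 6.22 and 7.05 in EILP_KO, and 6.67 and 6.85 in ILCP_WT. EILP_KO replicate 2 was above both ILCP_WT libraries, which in turn were above the rest. Eif2d rose by 1.21 ± 0.32 (limma, adjusted p = 0.0426), and the call was lost without EILP_WT replicate 1 (1.33) or 3 (0.79) and without ILCP_WT replicate 1 (1.19) or 2 (1.23).

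The gamma subunit of eIF2 is encoded by a gene pair on the sex chromosomes. Eif2s3x stayed between 5.43 and 6.81 in all 15 libraries (F test adjusted p = 0.98). Eif2s3y stood at the lowest value in 7 libraries: ALP_WT replicates 2 and 3, EILP_WT replicates 2 and 3, EILP_KO replicate 2 and both ILCP_WT libraries. In the other 8 it ranged from 1.42 to 6.13. The Y-linked Ddx3y was at the lowest value in the same 7 libraries, and Xist was at the lowest value in ALP_WT replicate 1, cEILP_WT replicate 3 and EILP_WT replicate 1. In sEILP_WT, in cEILP_WT replicates 1 and 2 and in EILP_KO replicate 1 both Xist and Ddx3y were above 0. Whether Ddx3y stood at the lowest value thus differed within ALP_WT, EILP_WT and EILP_KO and not within the other groups.

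**Figure D5:**
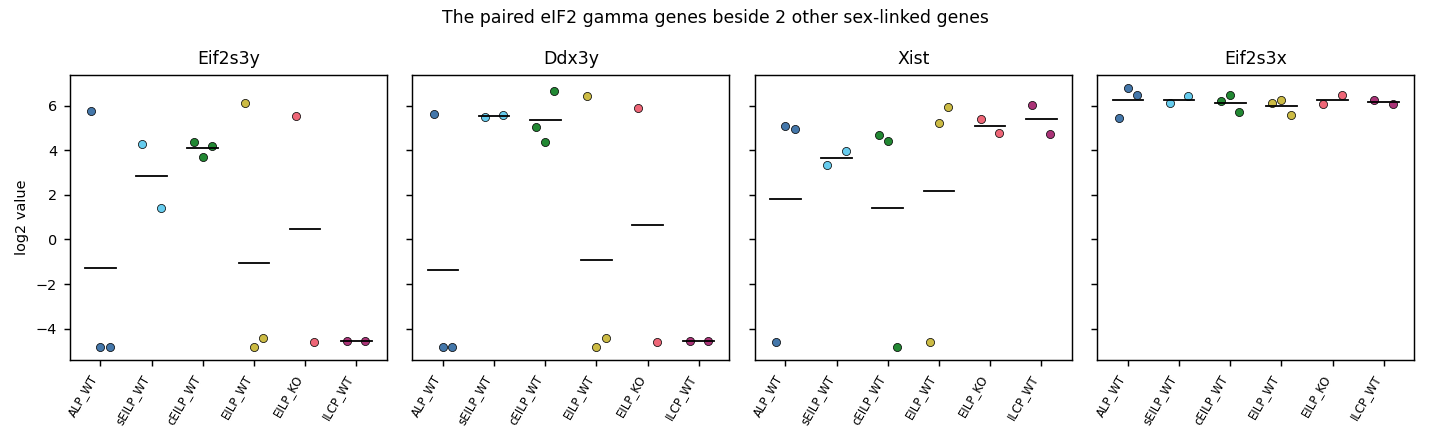
Log2 values (vertical axis) of Eif2s3y, Ddx3y, Xist and Eif2s3x by group (horizontal axes). Points are libraries and lines are group means. Eif2s3y and Ddx3y are at the lowest value in the same 7 libraries, and Eif2s3x stays between 5.43 and 6.81.

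The eIF2 kinases, which phosphorylate eIF2 alpha under stress, gave 0 calls of 4 in each ILCP_WT comparison by limma, with 0 of 4 at an unadjusted p under 0.05. Eif2ak1, the heme-regulated kinase, ranged from 6.58 to 7.98, and Eif2ak3, the kinase of the endoplasmic reticulum, from 2.91 to 6.35. Eif2ak4, the sensor of uncharged tRNA, was 1.82 in EILP_KO replicate 2 and 3.79 to 7.23 elsewhere. The cap-binding repressors also gave 0 calls of 3 (1, 0 and 0 at an unadjusted p under 0.05). Eif4ebp1 was 5.41 and 3.79 in ILCP_WT, Eif4ebp2 was 3.0 and 3.91, and the eIF4E transporter Eif4enif1 was 7.01 and 6.52, each within or next to the range of the other groups. Of the 7 start-site and subunit-joining genes 0 changed in the ILCP_WT comparisons by limma, with 0, 4 and 3 at an unadjusted p under 0.05. Eif1 was 9.28 and 9.31 in ILCP_WT and 8.91 to 9.36 elsewhere. Its paralog Eif1b was 6.05 and 4.22, against 5.41 to 6.41.

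Before the ILCP stage no translation factor gene passed the threshold. In EILP_WT against ALP_WT 0 of 62 changed by limma, beside 3.21% of all genes tested, and 3 had an unadjusted p under 0.05, beside 16.5%. In sEILP_WT against ALP_WT the count was 0, beside 0.803%, with 3 unadjusted, beside 9.13%. In cEILP_WT against sEILP_WT it was 0, beside 0%, with 1 unadjusted, beside 5.15%. The medians of the 62 genes were 0.02, 0.08 and -0.00 in these comparisons. Eif2ak2, the interferon-inducible kinase activated by double-stranded RNA, came closest. It was 6.70, 6.62 and 5.67 in ALP_WT, 5.06 and 5.85 in sEILP_WT, 4.91, 5.01 and 5.28 in cEILP_WT, 4.13, 5.49 and 4.0 in EILP_WT, 6.21 and 5.62 in EILP_KO, and 5.06 and 5.70 in ILCP_WT. The EILP_WT libraries were all below ALP_WT, with a difference of -1.86 ± 0.47 (limma, adjusted p = 0.0542). Without EILP_WT replicate 2, the highest of the 3, Eif2ak2 was called at -2.28 ± 0.43.

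In EILP_KO against EILP_WT, the comparison of 2 null Tcf7 alleles with 1, 0 of 62 changed by limma, beside 0.103% of all genes tested, and 8 had an unadjusted p under 0.05, beside 8.7%. The median difference was 0.09, beside 0.04 for all genes. Both EILP_KO libraries lay above all EILP_WT libraries for 12 of the 62 genes and below for 0, where 9.59% and 9.62% of all genes did. Eif2d had a difference of 1.08 ± 0.32 (95% confidence interval 0.39 to 1.78, adjusted p = 0.377), and Eif2ak2 of 1.41 ± 0.51 (0.30 to 2.53, adjusted p = 0.512). For Eif4a1 the difference was 0.26 (0.03 to 0.49, adjusted p = 0.548) and for Eif5a 0.07 (-0.21 to 0.35). Leaving out a library made 2 further calls, in which the lone EILP_KO library left is assumed to vary like the other groups. Eif2b4, an eIF2B subunit, was 3.43 in EILP_KO replicate 1 and 6.13 in replicate 2, with a difference of -1.23 ± 0.65. Without replicate 2 it was called at -2.76. Eif2ak4, at 6.6 and 1.82, had a difference of -1.64 ± 1.21, and was called at -4.90 without EILP_KO replicate 1.

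Genes that work beside these factors were counted from lists of the same pathway. Among 4 Myc family genes 2 passed the F test, Mycn (adjusted p = 0.000363) and Myc (0.000873). Myc, a transcription factor known to drive ribosome and translation factor genes, was 9.15, 8.91 and 9.07 in ALP_WT, 7.89, 7.90 and 7.60 in EILP_WT, 8.33, 8.87 and 8.78 in cEILP_WT, and 6.36 and 6.69 in ILCP_WT, below every other library. It fell by 1.30 ± 0.26 in ILCP_WT against EILP_WT (limma, adjusted p = 0.0105). Myc also fell by 1.19 ± 0.24 in EILP_WT against ALP_WT (adjusted p = 0.0182). The part of Myc in the translation factor results was not tested. Mycn was 5.23, 5.19 and 5.85 in ALP_WT, 8.28, 8.23 and 8.44 in cEILP_WT, and 6.38 and 6.53 in ILCP_WT.

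Of 21 genes of mTORC1 and of cap or poly(A) partners, 2 passed the F test, Pabpc1 (adjusted p = 0.00825) and Mknk2 (0.0455). Pabpc1, the poly(A)-binding protein that contacts eIF4G, was 7.74 and 8.0 in ILCP_WT and 8.35 to 9.23 in the other 13 libraries, and fell by 1.28 ± 0.19 against EILP_WT (limma, adjusted p = 0.00176). In ILCP_WT against ALP_WT 2 of the 21 rose: Mknk2, a kinase of eIF4E, by 0.96 ± 0.23 and Ddit4, an inhibitor of mTORC1, by 2.51 ± 0.57 (limma, adjusted p = 0.0154 and 0.0134). Of 20 measured aminoacyl-tRNA synthetase genes 1 passed the F test, Farsa (adjusted p = 0.044), which fell by 1.32 ± 0.29 in ILCP_WT against EILP_WT. Of 8 termination and recycling genes Abce1, the ribosome-splitting ATPase, fell by 1.09 ± 0.28 in that comparison (limma, adjusted p = 0.0354). Of 10 mitochondrial translation factors Gfm1 fell by 1.45 ± 0.39 (adjusted p = 0.0435). Of 8 integrated stress response genes and 8 genes of hypusine and diphthamide synthesis 0 passed the F test or any ILCP_WT comparison by limma, with 0, 0 and 1, and 1, 1 and 2, at an unadjusted p under 0.05.

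Of 20 cell cycle genes 7 passed the F test. In ILCP_WT against ALP_WT 8 of them fell and 0 rose, in ILCP_WT against EILP_WT 1 fell and 0 rose, and in ILCP_WT against cEILP_WT 2 rose and 2 fell. The cell cycle medians of these comparisons were -0.82, -0.16 and 0.40, where the 62 translation factor genes had -0.27, -0.32 and -0.38. The part of the cell cycle in the translation factor results was not tested.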

How the data were processed

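RNA of 15 sorted libraries was made into SMARTer and Nextera XT libraries, per the labels' protocols. The authors used bcl2fastq 2.17, STAR 2.5.2b, RSEM 1.2.23 and limma with build mm10, per the submitters' processing notes, and the annotation is not given in the sources used here. The deposited table holds log2 values, which the values themselves show to be quantile-normalized and near log2 CPM or TPM in total. It has 24 further unnamed columns, which were not used. Depth is unknown, and the number of libraries limits the precision.

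From these log2 values, limma 3.58.1 in R 4.3.3 fitted group and batch to all 15 libraries, with a variance trend. Genes at log2 0 or more in at least 2 libraries were tested (12572). P-values were adjusted by Benjamini-Hochberg over all genes tested within a comparison, and adjusted p under 0.05 counts as changed. Differences are fitted estimates with their standard error, and fold changes are on that scale. The fit was tested on simulated data.

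Translation factor genes were named with values where they changed in any test, or from a list of core factors, and up to 4 genes of each related list by the smallest F test p. The genes, lists and tests were chosen with earlier results of these data known. Alternatives were no batch term, no variance trend, other filters, a pseudocount of 1, cyclic loess, a replicate block, batch 1 alone, the 2 groups compared alone and each library left out. A Y-linked term (Ddx3y above 0) was chosen after seeing the data. Gene positions and types were read from GENCODE vM21, and 62 of 62 symbols matched. Promoter windows of 300 bases came from RefSeq.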

Additional observations from a re-analysis of the deposited data

How the results depend on the processing

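The 26 called pairs of a translation factor gene and a comparison did not reverse in the alternatives run: of 390 values, 211 kept their call and 179 lost it, all in the same direction. Differences of other genes, such as Myc and Pabpc1, were not run under them. The counts of changed translation factor genes moved more, and the cause was not tested except where fewer libraries or genes entered the fit.

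Without the variance trend the count was 0 in the F test (5 in the main analysis), and 1 against EILP_WT (8), 0 against cEILP_WT (8) and 3 against ALP_WT (10) in ILCP_WT. Cyclic loess gave 3, 4, 4 and 5 in the same order. A replicate block gave 1, 2, 1 and 6, although same-numbered libraries did not deviate together (0 of 33 pairs had a correlation over 0.1, with values of -0.07 to 0.05) and share only a number. Batch 1 alone gave 0, 3, 4 and 2, and batch 2 alone was not fitted. The Y-linked term gave 3 in the F test and 1 for ILCP_WT against cEILP_WT. Fits of the groups compared alone gave 0 in each ILCP_WT comparison, where 5 libraries remain. In EILP_WT against ALP_WT, 1 gene (Eif2ak2) was called with no batch term and with a pseudocount of 1.

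With each library left out in turn the counts ranged from 1 to 6 in the F test, 3 to 7 in ILCP_WT against EILP_WT, 3 to 7 against cEILP_WT and 2 to 10 against ALP_WT. They ranged from 0 to 1 in EILP_WT against ALP_WT and in EILP_KO against EILP_WT, and stayed at 0 in the comparisons with sEILP_WT. With 2 ILCP_WT libraries, the fit leans on the spread of the other groups.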
